A study of Homo sapiens with 2 samples.

Results

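Aminoacyl-tRNA synthetase mRNAs were compared by RNAseq between control and FZR1 ko cells, both under cisplatin. The genes were taken by their current symbols from a fixed list of 35 enzymes, 19 that serve the cytosol and 16 that serve mitochondria, and all 35 were found among the 23033 genes with a value. Control cells are labelled WT and FZR1 ko cells carry a CRISPR/Cas9 knockout of FZR1, which activates the APC/C ubiquitin ligase. Both carry the label T-47D, the name of a luminal line from breast cancer, and both received 2 µg/ml of cisplatin, a drug that crosslinks DNA, for a time the text of the study does not give. The ko line came from single cell cloning, so the knockout and the features of 1 clone cannot be told apart. Each group was 1 library. No difference below therefore has a replicate check or an error, and no test was made.

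A synthetase joins an amino acid to its matching tRNA at the cost of ATP, and so sets the meaning of each codon. The cytosolic and mitochondrial enzymes are encoded by separate nuclear genes for most amino acids, but KARS1 and GARS1 each make a cytosolic and a mitochondrial form from the same gene. EPRS1 joins the glutamyl and prolyl enzymes in a single chain. Several cytosolic synthetases assemble with the scaffold proteins AIMP1, AIMP2 and EEF1E1 into the multi-tRNA synthetase complex. Many cytosolic synthetase genes are targets of ATF4, the transcription factor of the amino acid and endoplasmic reticulum stress response, which binds C/EBP-ATF response elements.

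Short stretches of promoter sequence are given first, because they group the members by a property that the gene list did not use. RefSeq windows on GRCh38.p14, from 250 bases before to 50 bases after a start site, were found for 30 of the 35 genes, 39 windows in all, and not for LARS1, VARS1, YARS1, AARS2 or VARS2. The C/EBP-ATF response element TGATGNAA was searched on both strands. It was present in 8 of the 39 windows (20.5%), against 3.62% of all 35116 windows in the table. The 8 genes were 7 cytosolic members and 1 mitochondrial member, YARS2. All 7 cytosolic genes belong to the 12 listed here as ATF4-linked from general knowledge, of which 10 had a window. ATF4 binds this element, so that list and the element may not be independent. Each is shown on the strand that reads the element, which stands in capitals, with 11 bases on either side.
AARS1, chr16:70289675-70289704, plus strand: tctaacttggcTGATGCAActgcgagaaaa
CARS1, chr11:3057407-3057436, plus strand: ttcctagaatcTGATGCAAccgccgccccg
GARS1, chr7:30594834-30594863, minus strand: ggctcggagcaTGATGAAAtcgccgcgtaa
IARS1, chr9:92293692-92293721, plus strand: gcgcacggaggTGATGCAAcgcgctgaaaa
MARS1, chr12:57488053-57488082, minus strand: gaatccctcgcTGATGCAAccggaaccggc
NARS1, chr18:57621804-57621833, minus strand: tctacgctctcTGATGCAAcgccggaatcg
TARS1, chr5:33440956-33440985, minus strand: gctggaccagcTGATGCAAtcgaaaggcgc
YARS2, chr12:32756076-32756105, minus strand: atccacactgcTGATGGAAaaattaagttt

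The element began within 33 bases upstream of the start site in CARS1, GARS1, IARS1 and MARS1, and within 15 bases downstream of it in NARS1 and TARS1. It lay farther upstream in AARS1 and YARS2, from -187 and -197 relative to the start. A match of letters is not a proven site. Among the other 6 motifs searched, the cAMP response element TGACGTCA was in none of the 39 windows and in 1.85% of all windows. The NRF-1 site, a motif of 10 letters, was in 20.5% of the members' windows and 5.78% of all windows. The ETS site CCGGAAGT was in 23.1% and 4.14%, the E-box CACGTG in 12.8% and 7.26%, the YY1 site of 11 letters in 7.69% and 0.849%, and the CCAAT box CCAAT in 51.3% and 34.6%. Over the 22199 windows of protein-coding genes alone, the C/EBP-ATF response element was in 2.69% and the cAMP response element in 2.26%. The NRF-1 site was in 7.39% of these, the ETS site in 5.34%, the E-box in 8.34%, the YY1 site in 1.18% and the CCAAT box in 34.7%. Windows of the same gene can overlap, so these shares are descriptions.

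HARS1 and HARS2, the cytosolic and mitochondrial histidyl enzymes, lie head to head on chromosome 5 with only 84 bases between their annotated starts, so this stretch is shown as the sequence both start sites share. It covers chr5:140691371-140691454 of GRCh38.p14 and is read on the plus strand, from the HARS1 side to the HARS2 side, with its 2 ETS sites (1 on each strand) in capitals.
HARS1 to HARS2: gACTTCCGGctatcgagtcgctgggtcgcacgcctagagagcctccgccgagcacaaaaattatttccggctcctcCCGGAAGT

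Levels are FPKM, a unit corrected for transcript length and library size, so that different genes can be set side by side. The depth behind each value is unknown. Where a pair of FPKM values is given, control comes first and FZR1 ko second. Each log2 ratio, given in brackets after such a pair, compares FPKM plus 1 in the ko library with that in control. Genes reaching 1 FPKM in either library were kept, 13554 in all, and the median of their log2 ratios was -0.0048. All 35 members passed, and FARS2 passed only through FZR1 ko. FZR1 itself had 12.3 and 10.1 FPKM (-0.26), which does not check the label, since a knockout by small deletions can leave the mRNA in place. Of 13 luminal markers 6 were below 1 FPKM in both libraries (ESR1, PGR, GATA3, SPDEF, KRT19 and CDH1, with PGR listed at 0 in FZR1 ko). Their summed level was 1502 and 1845 FPKM, mostly KRT8 and KRT18. ESR1, PGR and GATA3, which define luminal cells, were thus at or near 0, against the T-47D label, while XBP1 (93.4 and 72.6 FPKM), TFF1 (9.80 and 7.52 FPKM), ERBB3 (7.14 and 9.07 FPKM), FOXA1 (5.07 and 4.65 FPKM) and EPCAM (3.90 and 11.5 FPKM) were present. Of 10 basal and mesenchymal markers 8 were at or above 1 FPKM, with a sum of 471 and 449 FPKM, mostly vimentin (315 and 295 FPKM). The sum covers differences in both directions, with CDH2 (2.97 and 15.3 FPKM), AXL (16.0 and 37.8 FPKM) and CAV1 (18.4 and 31.4 FPKM) higher in FZR1 ko, and KRT17 (102.8 and 55.8 FPKM) and SNAI2 (7.05 and 3.86 FPKM) lower. Of 9 leukocyte, endothelial and fibroblast markers 5 were at or above 1 FPKM, with a sum of 59.1 and 73.3 FPKM. Most of it was CD68 (46.1 and 63.8 FPKM), while CD3E was listed at 0 in both libraries and PTPRC had 0.08 and 0.09 FPKM. The part of these differences in the results was not tested, and in bulk RNA a change in the mix of cells and a change in each cell cannot be told apart.

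Cytosolic synthetase mRNAs were abundant in both libraries. They ranged from 18.2 FPKM for LARS1 to 214 FPKM for KARS1 in control, with a median of 52.9 FPKM, and from 31.2 FPKM for FARSB to 197 FPKM for TARS1 in FZR1 ko, with a median of 74.1 FPKM. KARS1 (lysine), TARS1 (threonine), FARSA (phenylalanine), GARS1 (glycine) and SARS1 (serine) were the top 5 cytosolic members in both. With 1 library each, it cannot be said which neighbours in this order differ beyond their spread. Mitochondrial synthetase mRNAs were lower, from 0.69 FPKM for FARS2 to 58.2 FPKM for IARS2 in control, with a median of 9.44 FPKM, and from 2.28 to 84.6 FPKM for the same genes in FZR1 ko, with a median of 15.9 FPKM. Summed over the members, the cytosolic enzymes had 1446 and 1564 FPKM, and the mitochondrial enzymes 263 and 377 FPKM. The mitochondrial sum was thus 1.43 times as high in FZR1 ko, and the cytosolic sum 1.08 times.

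**Figure D1:**
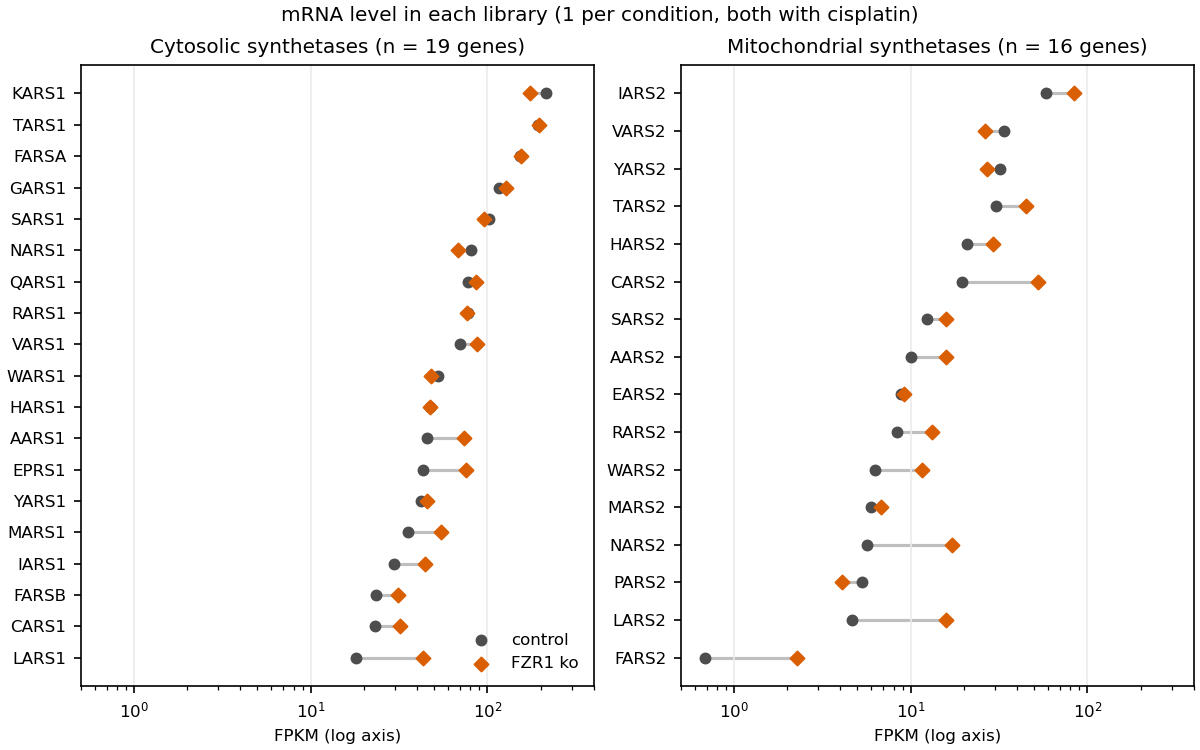
FPKM of each synthetase gene in control (grey circles) and FZR1 ko (orange diamonds) on a log axis, cytosolic genes at the left and mitochondrial genes at the right, each ordered by the control level. Points are single libraries. KARS1, TARS1 and FARSA top the cytosolic genes in both, while LARS1 in the cytosolic group and CARS2, NARS2, LARS2 and FARS2 in the mitochondrial group have the widest gaps.

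Most members were higher in FZR1 ko than in control, 26 of 35, against 6726 of the 13554 genes kept. The difference was larger for the mitochondrial enzymes. The median log2 ratio was 0.13 over the 19 cytosolic members, of which 13 were higher and 6 lower, and 0.54 over the 16 mitochondrial members, of which 13 were higher and 3 lower. On this scale, at least 1.5-fold higher in FZR1 ko were 11 of the 35 members (31.4%), against 18.0% of all genes kept. When 1 FPKM was required in both libraries, which leaves out FARS2, 10 of 34 members (29.4%) were, against 16.0% of genes. At least 2-fold higher were 4 of the 35 (11.4%), against 6.78% of all genes kept. With the median of genes of like span subtracted, 1 member (2.86%) was at least 2-fold higher, against 3.52% of protein-coding genes. By compartment, 4 of 19 cytosolic members (21.1%) and 7 of 16 mitochondrial members (43.8%) were at least 1.5-fold higher. None of the 35 was 1.5-fold lower, against 17.6% of all genes kept, or 2-fold lower, against 6.72%. Among genes of at least 10 FPKM in 1 library, a group nearer to the members in level, 15.2% were at least 1.5-fold higher and 18.0% at least 1.5-fold lower.

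**Figure D2:**
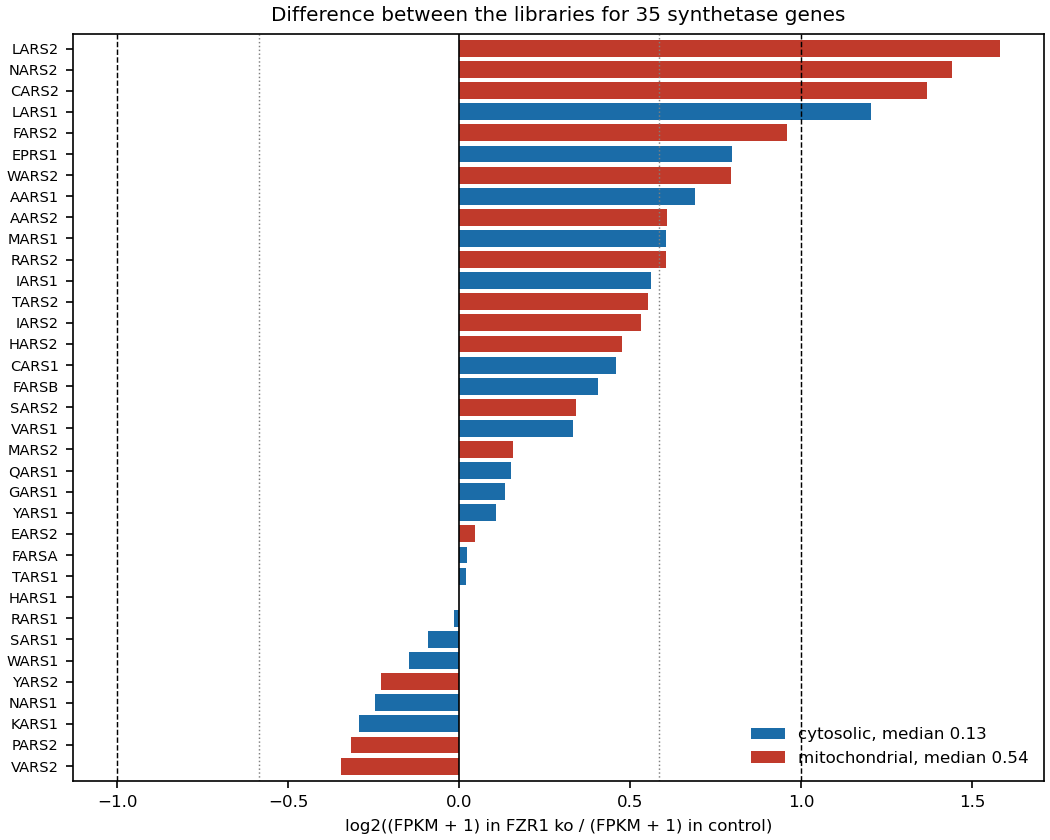
Log2 ratio of FPKM + 1 in FZR1 ko to control for each synthetase gene, cytosolic in blue and mitochondrial in red, with dotted lines at 1.5-fold and dashed lines at 2-fold. Each bar compares 1 library with 1 library. LARS2, NARS2, CARS2 and LARS1 pass 2-fold, and no gene passes 1.5-fold on the lower side.

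The leucyl enzymes stood out in both compartments. LARS1, the cytosolic leucyl enzyme, which also senses leucine for mTORC1, had 18.2 and 43.2 FPKM (log2 ratio 1.20), the largest difference of the cytosolic members. It was the lowest cytosolic member in control and ranked 17 of 19 in FZR1 ko. LARS2, its mitochondrial counterpart, had 4.63 and 15.8 FPKM (1.58), and moved from rank 15 to rank 9 of the 16 mitochondrial genes. LARS2 had the largest log2 ratio of all members at this pseudocount, but CARS2 was above it with a pseudocount of 5 FPKM (1.22 against 1.11) and with the span trend subtracted (1.12 against 0.94). The span trend is the median log2 ratio of genes of like length in the genome. Leucine was the only amino acid with both of its enzymes past 2-fold, before the span trend was subtracted.

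The other mitochondrial members past 2-fold charge asparagine and cysteine. NARS2 had 5.66 and 17.1 FPKM (1.44). CARS2, which also makes cysteine persulfides, had 19.7 and 52.3 FPKM (1.37), and became the second most abundant mitochondrial member in FZR1 ko after IARS2. FARS2, for phenylalanine, was just short of 2-fold on this scale, with 0.69 and 2.28 FPKM (0.96). The pseudocount matters most for this gene, since its FPKM itself was 3.30 times as high in FZR1 ko.

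A middle group of mitochondrial members had smaller differences in the same direction. WARS2 (tryptophan) had 6.27 and 11.6 FPKM, AARS2 (alanine) 10.01 and 15.8 FPKM and RARS2 (arginine) 8.32 and 13.2 FPKM, and these were at least 1.5-fold higher. TARS2 (30.3 and 44.9 FPKM), IARS2 (58.2 and 84.6 FPKM), HARS2 (20.8 and 29.3 FPKM) and SARS2 (12.4 and 15.9 FPKM) were higher by less than 1.5-fold. MARS2 (5.97 and 6.77 FPKM) and EARS2 (8.87 and 9.18 FPKM) had log2 ratios of 0.16 and 0.045. The lower ones were VARS2 for valine, with 33.9 and 26.5 FPKM (-0.35), PARS2 for proline, with 5.34 and 4.09 FPKM (-0.32), and YARS2 for tyrosine, with 32.1 and 27.2 FPKM (-0.23). Among mitochondrial members VARS2 thus went from rank 2 to rank 6, and YARS2 from rank 3 to rank 5.

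Of the cytosolic members, 7 belong to the multi-tRNA synthetase complex, and 5 of these were higher in FZR1 ko. Besides LARS1, EPRS1 had 43.4 and 76.1 FPKM (0.80), MARS1 35.5 and 54.5 FPKM (0.61) and IARS1 29.7 and 44.3 FPKM (0.56). QARS1 had 77.4 and 86.1 FPKM (0.15) and RARS1 77.2 and 76.4 FPKM (-0.015). KARS1, the most abundant member in control, had 214 and 175 FPKM (-0.29), the lowest log2 ratio of the cytosolic members. The median of the 7 was 0.56, and that of the 12 free cytosolic members was 0.064. With the span trend subtracted they were 0.37 and 0.090. These 7 mRNAs thus lay closer together in FZR1 ko, from 43.2 to 175 FPKM, than in control, from 18.2 to 214 FPKM. Of the 3 scaffold mRNAs, AIMP1 alone (33.3%) differed by over 1.5-fold. Among all genes kept, 18.0% were at least 1.5-fold higher and 17.6% at least 1.5-fold lower. AIMP1 had 33.2 and 19.6 FPKM (-0.73), EEF1E1 37.4 and 34.2 FPKM (-0.13) and AIMP2 76.1 and 74.5 FPKM (-0.029). Their median was -0.13, or -0.045 with the span trend subtracted.

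Free cytosolic members had smaller log2 ratios. AARS1, the alanyl enzyme, had 45.5 and 74.1 FPKM (0.69), and was the only one of the 12 past 1.5-fold (8.33%), against 18.0% of all genes kept. CARS1 (23.2 and 32.2 FPKM) and VARS1 (69.6 and 87.9 FPKM) had log2 ratios of 0.46 and 0.33. FARSA and FARSB encode the subunits of the same phenylalanyl enzyme. FARSA had 153 and 155 FPKM (0.021) and FARSB 23.3 and 31.2 FPKM (0.40), so the FARSA mRNA was several-fold above the FARSB mRNA in both. GARS1 (116 and 127 FPKM), YARS1 (42.1 and 45.5 FPKM), TARS1 (194 and 197 FPKM) and HARS1 (47.42 and 47.35 FPKM) had log2 ratios between -0.0021 and 0.13. The lower ones were NARS1 (80.9 and 68.1 FPKM, -0.25), WARS1 (52.9 and 47.7 FPKM, -0.15) and SARS1 (102.5 and 96.2 FPKM, -0.091). Despite the shared stretch shown above, HARS1 was level between the libraries and HARS2 had a log2 ratio of 0.48.

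The relation between the compartments differed by amino acid. For 13 amino acids 1 cytosolic and 1 mitochondrial gene could be paired. Phenylalanine, with FARSA and FARSB against FARS2, and glutamate and proline, with EPRS1 against EARS2 and PARS2, were left out because their genes do not pair singly. The cytosolic mRNA was the higher in 12 of them in control and in 11 in FZR1 ko. The median ratio of cytosolic to mitochondrial FPKM was 4.55 in control and 3.98 in FZR1 ko, and the ratio was smaller in FZR1 ko for 8 amino acids and larger for 5. The largest shift was that of asparagine, where NARS1 was 14.3 times NARS2 in control and 3.98 times in FZR1 ko, NARS1 being lower and NARS2 higher. For cysteine the order turned, from 1.18 times as much CARS1 as CARS2 in control to 0.616 times in FZR1 ko. Isoleucine was the exception in both libraries, with IARS1 at 0.510 and 0.524 times IARS2. Tryptophan went from 8.44 to 4.11, leucine from 3.92 to 2.73, and valine the other way from 2.05 to 3.32. Both genes were higher in FZR1 ko for 6 amino acids, both were lower for none and they went in opposite directions for 7. In HARS1 and RARS1, which are among these 7, the cytosolic gene was lower by less than 0.02 on the log2 scale.

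Gene span went with the differences across the members and across all protein-coding genes. Span is the distance from the first to the last base of the RefSeq gene on GRCh38.p14, introns included. Over the 35 members Spearman's rho between span and log2 ratio was 0.63, over the 19 cytosolic members 0.51 and over the 16 mitochondrial members 0.81. Over the 11550 protein-coding genes kept it was 0.45. These are correlations across genes of the same 2 libraries, and genes are not independent replicates. For the length of the canonical GENCODE 44 transcript rho was 0.30 over the members, 0.72 over the cytosolic and -0.11 over the mitochondrial ones, and 0.18 over 11453 protein-coding genes. For the number of exons of that transcript rho was 0.36 over the members, 0.80 over the cytosolic and 0.22 over the mitochondrial ones, and 0.38 over the protein-coding genes. Exon number thus went with the differences of the cytosolic members more closely than span did.

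Genes were then put into 5 equal groups by span. The median log2 ratio of protein-coding genes was -0.22 in the shortest group, up to 9.06 kb, then -0.18 up to 20.1 kb, -0.085 up to 38.5 kb, 0.14 up to 79.8 kb, and 0.56 above that. In the same order, 7.40%, 7.53%, 9.83%, 18.9% and 48.4% of genes were at least 1.5-fold higher in FZR1 ko. The share higher by any amount was 34.2%, 35.8%, 43.6%, 60.6% and 85.3%, again from the shortest group to the longest. The members with the largest differences were mostly long genes. All 6 members in the longest group were higher, as were 85.3% of all protein-coding genes in it, with a member median of 0.88, and 4 of them were past 1.5-fold (LARS2 of 161 kb, NARS2 of 139 kb, WARS2 of 109 kb and FARS2 of 522 kb). Of the 9 members in the next group, which holds LARS1 (69.6 kb), CARS2 (72.1 kb) and EPRS1 (77.9 kb), 8 were higher, with a median of 0.53, and 4 were past 1.5-fold. Of the 8 members in the middle group 5 were higher, with a median of 0.032, and 2 were past 1.5-fold, MARS1 and AARS1. Of the 8 from 9.07 to 20.1 kb 4 were higher and 4 lower, with a median of 0.0095, and AARS2 (14.6 kb) was past 1.5-fold. None of the 4 shortest was, and their median was 0.15.

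With the median of genes of like span subtracted, in 20 groups by span, 28 of the 35 members were above 0 and 7 below, with a median of 0.26. By construction about as many genes lie above as below in each group. The cytosolic median was then 0.13 and the mitochondrial median 0.40. CARS2 stood 1.12 above the genes of its span, LARS1 0.96, LARS2 0.94, NARS2 0.80, AARS2 0.78 and AARS1 0.73. FARS2 (0.16), WARS2 (0.26), IARS1 (0.22) and FARSB (0.063) were close to the genes of their own span. HARS2, MARS2 and QARS1 are short genes, and stood 0.69, 0.43 and 0.37 above theirs. This subtraction was chosen after the values were seen.

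Some members share sequence with other genes. The spans of MARS1, YARS1, CARS2, FARS2 and EARS2 overlap at least 1 other protein-coding gene in RefSeq. The study does not say whether reads were counted by strand, so reads where exons overlap are uncertain. One neighbour of MARS1 is DDIT3, a stress factor that acts with ATF4, and it had 19.3 and 12.9 FPKM (-0.55), against the higher MARS1. EPRS1 and IARS2 lie 47.6 kb apart on chromosome 1, and both were higher in FZR1 ko (0.80 and 0.53). VARS2 and VARS1 lie 851 kb apart on chromosome 6 and went in opposite directions (-0.35 and 0.33).

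By the class of their fold, the 18 class I members had a median of 0.40, with 14 higher and 4 lower, and the 16 class II members a median of 0.24, with 11 higher and 5 lower. The class II median was 0.13 without FARS2, which was below 1 FPKM in control. After subtraction of the span trend, the medians were 0.32 for class I and 0.15 for class II. EPRS1, which holds a domain of each class, was left out. The 12 ATF4-linked cytosolic members had a median of 0.30, with 9 higher and 3 lower and 4 at least 1.5-fold higher (LARS1, EPRS1, AARS1 and MARS1), against 18.0% of all genes kept. The other 7 cytosolic members had a median of 0.021, with 4 higher and 3 lower and none past 1.5-fold, which in so few genes is close to that share. With the span trend subtracted these medians were 0.16 and 0.13, so most of the gap between them was no longer there. By the element shown above, the 7 cytosolic members with TGATGNAA had a median of 0.46, from -0.25 for NARS1 to 0.69 for AARS1. The 9 searched without a match had a median of -0.0021, from -0.29 for KARS1 to 0.80 for EPRS1. With the span trend subtracted the medians were 0.22 and 0.063. LARS1, VARS1 and YARS1 had no window and are in neither group. The ranges of these groups overlap.

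Other ATF4 response genes were split. Of 30 listed, 29 were kept, and 14 were higher and 15 lower in FZR1 ko, with a median of -0.11. The direction of this median depended on the processing, since it was 0.16 with the span trend subtracted and -0.28 among genes of at least 10 FPKM in at least 1 library. ATF4 itself had 159 and 148 FPKM (-0.11), and 10 of the 29 (34.5%) were at least 1.5-fold higher, against 18.0% of all genes kept, and 6 (20.7%) at least 1.5-fold lower, against 17.6%. The highest ratios were those of PHGDH, the first enzyme of serine synthesis, with 24.9 and 78.2 FPKM (1.61), VLDLR, a lipoprotein receptor that was kept only through its level in FZR1 ko, with 0.23 and 2.01 FPKM (1.29), and SLC7A5, a leucine transporter, with 128 and 265 FPKM (1.05). The lowest were those of CHAC1, which degrades glutathione, with 12.1 and 4.13 FPKM (-1.35), SESN2, a leucine sensor, with 17.5 and 7.68 FPKM (-1.09), and PPP1R15A, which restores translation after stress, with 70.7 and 36.5 FPKM (-0.94).

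Genes that act before and after charging were compared in the same way. Of 9 genes for tRNA maturation, export and proofreading 5 were higher and 4 lower, with a median of 0.22. That median is the value of TARS3 (3.33 and 4.03 FPKM), a threonyl-tRNA synthetase outside the 35 that this list also holds, and it was -0.0046 over the other 8 genes. With TARS3, it was 0.12 with a pseudocount of 5 FPKM and 0.34 among genes of at least 10 FPKM, and it turned to -0.030 with the span trend subtracted. DTD1, which removes D-amino acids from tRNA, had 3.17 and 9.61 FPKM (1.35), AARSD1, an alanyl editing protein, 13.8 and 21.9 FPKM (0.63), and ELAC2, which trims tRNA ends, 31.3 and 40.4 FPKM (0.36). ELAC1, a related nuclease, had 2.88 and 1.09 FPKM (-0.89). SEPSECS and PSTK, which turn the serine placed by SARS1 on its tRNA into selenocysteine, had 2.66 and 1.43 FPKM (-0.59) and 2.18 and 1.42 FPKM (-0.39). The 4 genes of elongation factor 1, which takes up charged tRNA, had a median of 0.27, or 0.43 with the span trend subtracted. EEF1G had 712 and 979 FPKM (0.46), EEF1D 272 and 346 FPKM (0.35), EEF1B2 376 and 428 FPKM (0.19) and EEF1A1 1560 and 1531 FPKM (-0.027).

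The mitochondrial partners of the synthetases were mixed. Of 13 genes for the charging of mitochondrial tRNA and for mitochondrial translation 9 were higher and 4 lower in FZR1 ko, with a median of 0.29, or 0.16 with a pseudocount of 5 FPKM. At least 1.5-fold higher were 3 (23.1%), near the 18.0% of all genes kept, and 1 was at least 1.5-fold lower. MTIF2, an initiation factor, had 25.8 and 41.9 FPKM (0.68), and GFM1, an elongation factor, 18.2 and 28.4 FPKM (0.61). GATB and GATC are subunits of the amidotransferase that makes glutaminyl-tRNA from the product of EARS2. GATB had 6.50 and 10.5 FPKM (0.61) and GATC 24.8 and 18.9 FPKM (-0.37). MTRF1L, a release factor, had 19.9 and 8.77 FPKM (-1.10), and TUFM, the elongation factor that binds the charged tRNA, 211 and 181 FPKM (-0.22).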

How the data were processed

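RNAseq was performed on total RNA of 2 libraries, control and FZR1 ko, on the BGISEQ-500 platform. The authors aligned reads to the transcriptome with Bowtie2 and quantified them with RSEM on hg38, and deposited FPKM per Entrez gene ID to 2 decimals. The submitters' processing notes also list Trimmomatic 0.36, HISAT2 2.1.0 and Bowtie2 2.2.5, while the methods give another Bowtie2 version. The annotation version, the strand setting and filters are not given in the sources used here. Of 24663 rows 1630 had no value. Of the other 23033 gene IDs 22925 matched a RefSeq symbol of GRCh38.p14.

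From the deposited FPKM, log2 ratios with a pseudocount of 1 FPKM were computed among genes of at least 1 FPKM in at least 1 library, and genes past 1.5-fold or 2-fold were counted. FPKM holds no counts, so depth is unknown and no interval can be given. Groups were taken from the genotype labels. Each group held a single library, so nothing was tested. The computation was tested on simulated data. Members and lists were chosen with earlier results of these data known. All members could be named. Of other lists, up to 4 genes were named whole, and otherwise the 3 highest and 3 lowest ratios. Markers and FZR1 were also named, and ATF4, DDIT3 and TARS3 were named after their values were seen. Promoters are from RefSeq. A list of other genes fixed for these data is not reported here. Alternatives were other pseudocounts, filters and scalings. Python 3.11.15, numpy 2.4.6, pandas 2.3.3 and matplotlib 3.10.9 were used.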

Additional observations from a re-analysis of the deposited data

How the results depend on the processing

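No paired analysis was possible because control and FZR1 ko are single libraries, and no replicate could be left out for that reason. No test was made. Values were recomputed with pseudocounts of 0.1 and 5 FPKM, no filter, at least 1 FPKM in both libraries, at least 10 FPKM in at least 1 library, centring on the median, and rescaling to the same sum. Subtraction of the span trend, protein-coding genes only and the tRNA maturation list without TARS3 were added after the data were seen. With a pseudocount of 5 FPKM the mitochondrial median was 0.43 in place of 0.54 and 6 members (17.1%) in place of 11 were at least 1.5-fold higher, against 8.21% of all genes, since a larger pseudocount shrinks ratios by construction. With the span trend subtracted the mitochondrial median was 0.40, 1 member (2.86%) in place of 4, CARS2, was at least 2-fold higher, against 3.52% of protein-coding genes, and 9 (25.7%) were at least 1.5-fold higher, against 12.7%. The cytosolic median stayed within 0.1 of 0.13 under all of these alternatives, and no member became 1.5-fold lower under any. Among members the sign changed only for HARS1, on centring, rescaling and span subtraction, and for RARS1 on span subtraction, and both had log2 ratios within 0.02 of 0. Among other lists, the median of the ATF4 response genes (-0.11 to 0.16) and that of the tRNA maturation genes (0.22 to -0.030) changed sign on span subtraction. Depth is unknown, and its effect on these values was not measured.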
